A study of Ovis aries with 18 samples.

Results

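Adenylate kinases move a phosphate group between adenine nucleotides, turning ATP and AMP into ADP and back, and so keep the adenylate pool balanced and set how much AMP a cell holds when ATP is spent. The family divides by place in the cell: AK1 and AK5 act in the cytosol, AK3 and AK4 in the mitochondrial matrix and AK6 in the nucleus. AK7 and AK8 are tied to motile cilia and flagella. In the early embryo ATP drives cleavage, the ion pumping that fills the blastocoel, and biosynthesis.

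Adenylate kinase transcripts were described in pools of sheep embryos whose sires had or had not been given extra methionine, and 1 cytosine of AK8 was described in the sperm of the same sires. The members were 8 genes chosen by name (AK1, AK3, AK4, AK5, AK6, AK7, AK8 and AK9), of which 6 were found among the 20092 genes of the embryo count table. AK1 and AK6 were not found there under those symbols and are not analysed here. AK8 was selected on its lower counts in the methionine pools, and the sperm site for its diet difference, so the values of both are given as a description with no test. For the other 5 members the rule of the choice names no diet difference, and these were tested. Earlier results of these data were known when the members were chosen.

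The study used 6 Polypay rams, of which 3 (Ram410, Ram423 and Ram444) received a basal diet and 3 (Ram424, Ram498 and Ram511) the same diet with a 1.5 g (0.22%) top-dress of rumen-protected methionine, which is coated so that rumen microbes do not break it down. The rams were on average 88 days old at the start and were fed for 77 days, before puberty. Semen of each ram, collected after the feeding had ended, was measured by reduced representation bisulfite sequencing, which reads methylation mainly in CpG-rich fragments, giving 1 sperm sample per ram. Each ram was later mated to few superovulated ewes of the same breed, and their embryos were flushed 8 days after mating began and sequenced as RNA in 12 pools of 5 embryos, 6 per diet. Pools of 1 ram share a sire: the control rams gave 2 pools each, Ram424 gave 4 of the 6 methionine pools, and Ram498 and Ram511 gave 1 each. Tests over pools therefore measure the spread between pools and not between rams, and the sire and the dam of a pool cannot be told apart.

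The 12 pools held between 1017847 and 2398589 counts in genes. A pool of Ram444 (Embryo444_2, control) and the pool of Ram511 (Embryo511_1, methionine) stood apart: their median Spearman correlation with the other pools was 0.582 and 0.600, against 0.82 to 0.857 for the remaining 10. Of 7 trophectoderm markers found, 6 were below the lowest of the 10 in each of the 2 pools, as were 3 of 4 inner cell mass markers in Embryo444_2 and 2 of 4 in Embryo511_1 and 1 of 3 hypoblast markers tested in each. Other hypoblast markers were above the 10: GATA4 in Embryo511_1 (94.2 CPM against at most 44.3) and PDGFRA in Embryo444_2 (166 against at most 155). KRT8, a keratin of the trophectoderm, had 116 and 42.6 CPM (read counts scaled to a common library size by the TMM method) in these 2 pools against at least 3893 in the 10, and POU5F1, the pluripotency factor OCT4, had 14.2 and 39.7 CPM against at least 132. The summed level of the 7 trophectoderm markers found was 224 and 194 CPM against 5252 to 14350, while ELF5 and NANOG were within the range of the 10. In Embryo511_1 the summed spermatozoon and spermatid markers were at 1497 CPM against 139 to 275 in the 10, most of it TNP1 (1008 CPM), with AKAP4 and CATSPER1 within the range of the 10, and the summed oocyte markers were at 719 CPM against 95.6 to 157, led by ZP3 (410 CPM). The oocyte marker ZAR1 went the other way there, at 0 CPM against at least 4.96 in the 10. The log2 fold changes of the members are given below with the 12 pools and again with the 10. Other results, such as those of single genes in the lists, are of the 12 pools unless the 10 are named. The part of these 2 pools in the results was not tested beyond that. In bulk samples fewer cells of a type and less RNA per cell cannot be told apart.

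AK8 was lower in the methionine pools. The control pools had 56.4 CPM (Embryo410_1), 43.2 (Embryo410_2), 24.3 (Embryo423_1), 23.1 (Embryo423_2), 18.4 (Embryo444_1) and 43.9 CPM (Embryo444_2). The methionine pools had 8.60 CPM (Embryo424_1), 8.49 (Embryo424_2), 16.9 (Embryo424_3), 11.3 (Embryo424_4), 23.5 (Embryo498_1) and 11.9 CPM (Embryo511_1). The highest methionine pool lay above the 2 lowest control pools, so the groups overlapped, and the mean was 13.5 ± 5.80 CPM (SD, n = 6) in the methionine pools and 34.9 ± 15.1 CPM (SD, n = 6) in the control pools.

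The fitted log2 fold change of AK8, methionine minus control, was -1.37 with an SE of 0.36. It was -1.28 with an SE of 0.38 without Embryo444_2 and Embryo511_1. AK8 rested on few reads, from 12 counts (exact Poisson 95% interval 6.20 to 21.0) in Embryo511_1 to 75 counts (59.0 to 94.0) in Embryo410_1, and these intervals cover counting error only. Over the 12 pools, the diet difference included, its coefficient of variation was 64.6% and the highest pool was at 6.65 times the lowest. The control pools alone ran from 26 counts (17.0 to 38.1) to 75, further apart than these intervals.

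**Figure D1:**
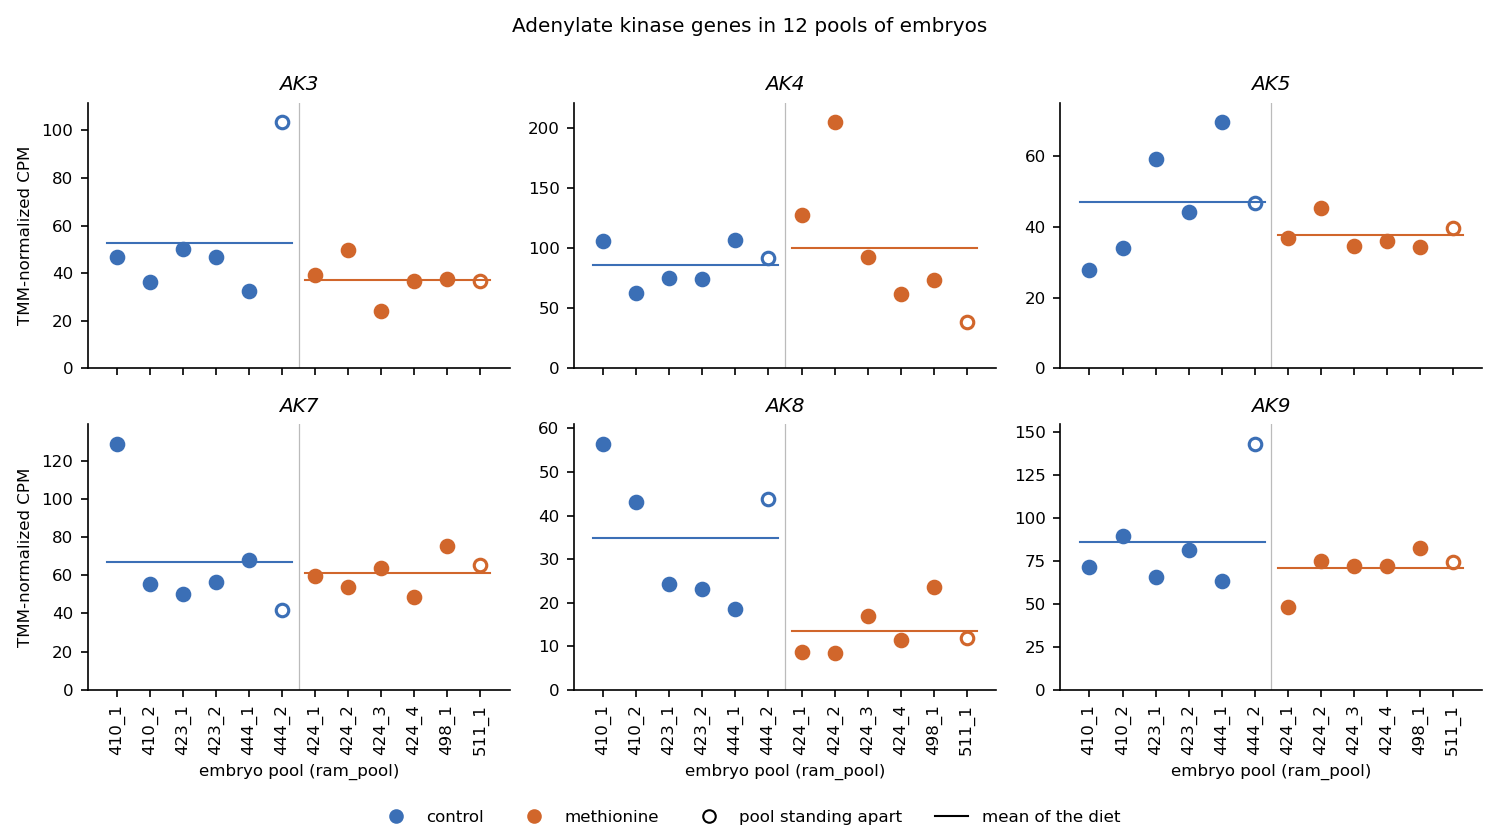
Level of each adenylate kinase gene found, in TMM-normalized CPM, in each embryo pool named by ram and pool number; blue points are control pools, orange points methionine pools, open points the 2 pools that stood apart, and lines the mean of the 6 pools of a diet. AK8 ran from 18.4 to 56.4 CPM in control pools and from 8.49 to 23.5 CPM in methionine pools, and in every panel the diets overlap.

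The difference in AK8 also ran between sires of 1 diet. Ram410 had 43.2 and 56.4 CPM in its 2 pools, above both pools of Ram423, which had 23.1 and 24.3 CPM. The pools of Ram444 lay 2.38 times apart, at 18.4 and 43.9 CPM, and the higher of them was the one that stood apart. Among methionine sires the 4 pools of Ram424 ran from 8.49 to 16.9 CPM, and the single pool of Ram498, at 23.5 CPM, was level with those of Ram423. Averaged over the pools of each ram, AK8 was 49.8, 23.7 and 31.2 CPM for Ram410, Ram423 and Ram444 and 11.3, 23.5 and 11.9 CPM for Ram424, Ram498 and Ram511, so the lowest control sire and the highest methionine sire had nearly the same mean. With the counts of each ram summed, 3 rams against 3, the log2 fold change of AK8 was -1.14, and without Ram424 it was -0.95.

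None of the other 5 members passed the test. By edgeR's quasi-likelihood test with Benjamini-Hochberg adjustment over 16488 genes, 0 of the 5 had an adjusted p under 0.05 and 0 of the 5 an unadjusted p under 0.05. Over all genes tested the shares were 0% (0 genes) and 7.92% (1306 genes). The likelihood-ratio test of edgeR also called 0 of the 5, with 5 called among all 16488 genes, and DESeq2 0 of the 5, with 16 among all. The limma fit, which alone held a random effect of the ram, called 0 of the 5 and 0 among all. The median log2 fold change of the 5 was -0.28, against 0.01 for all genes tested, and 4 of the 5 estimates were below 0. No member had CPM that were fully apart between the diets, a pattern that 0.352% of the genes tested showed.

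AK3, which uses GTP to phosphorylate AMP in the mitochondrial matrix, had 46.7, 36.1, 50, 46.8, 32.6 and 103 CPM in the control pools Embryo410_1, Embryo410_2, Embryo423_1, Embryo423_2, Embryo444_1 and Embryo444_2. In the methionine pools Embryo424_1, Embryo424_2, Embryo424_3, Embryo424_4, Embryo498_1 and Embryo511_1 it had 39.2, 49.8, 24.0, 36.9, 37.3 and 36.7 CPM. Embryo444_2, one of the 2 pools that stood apart, was the highest by far, and the other pools of both diets overlapped. Its log2 fold change was -0.49 with an SE of 0.29 (edgeR adjusted p = 0.695) and -0.19 without the 2 pools (adjusted p = 0.794).

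AK4, a matrix protein close in sequence to AK3 whose gene responds to hypoxia, was the member with the widest spread among methionine pools. In the same order of pools it had 106, 63.0, 75.0, 74.4, 107 and 92.0 CPM with the control diet and 128, 205, 92.5, 61.9, 73.5 and 38.7 CPM with methionine. The highest and the lowest of all 12 pools were both methionine pools, Embryo424_2 and Embryo511_1. The log2 fold change was 0.22 with an SE of 0.33 (edgeR adjusted p = 0.883) and 0.38 without the 2 pools (adjusted p = 0.626), and without Embryo424_2 it turned to -0.13. The mitochondrial members thus had estimates of opposite sign, neither past the test.

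AK5, a cytosolic kinase best known from brain, had 27.8, 34.0, 59.3, 44.3, 69.5 and 46.7 CPM in the control pools. The methionine pools were closer together, at 36.8, 45.3, 34.6, 35.9, 34.3 and 39.7 CPM, and lay inside the control range. The SD was 15.5 CPM in control and 4.16 CPM in methionine pools, a difference in spread that was not tested. By diet it differed by a log2 fold change of -0.31 with an SE of 0.25 (edgeR adjusted p = 0.758), and -0.34 in the 10 pools.

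The ciliary relative of AK8, AK7, is a sperm flagellum and cilium protein. It had 129, 55.2, 50, 56.5, 68.1 and 41.8 CPM in control pools and 59.7, 53.8, 63.5, 48.7, 75.3 and 65.4 CPM in methionine pools. Embryo410_1, the pool with the highest AK8, also had the highest AK7, but the other pool of the same ram was in the middle of the range. For AK7 the log2 fold change was -0.13 with an SE of 0.27 (edgeR adjusted p = 0.922) and became 0.17 when Embryo410_1 was left out. In the 10 pools it was -0.26 (edgeR adjusted p = 0.722).

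AK9, a kinase of several nucleoside mono- and diphosphates, was the least variable member in the 10 pools, with a coefficient of variation of 15.9%. It had 71.5, 89.2, 65.7, 81.5, 63.2 and 143 CPM in control pools and 48.3, 74.7, 72.0, 71.8, 82.5 and 74.4 CPM in methionine pools. The value of 143 CPM came from Embryo444_2, which was the highest pool for AK3 as well. The log2 fold change was -0.28 with an SE of 0.24 (edgeR adjusted p = 0.781) and -0.10 in the 10 pools (adjusted p = 0.889).

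In the 10 pools 0 of the 5 members had an unadjusted p under 0.05, where the share of all 16161 genes tested was 11.9%. The counts put no narrow limit on these genes: the SE of each log2 fold change ran from 0.24 to 0.33 in the 12 pools, so differences of that size were not detectable here.

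**Figure D2:**
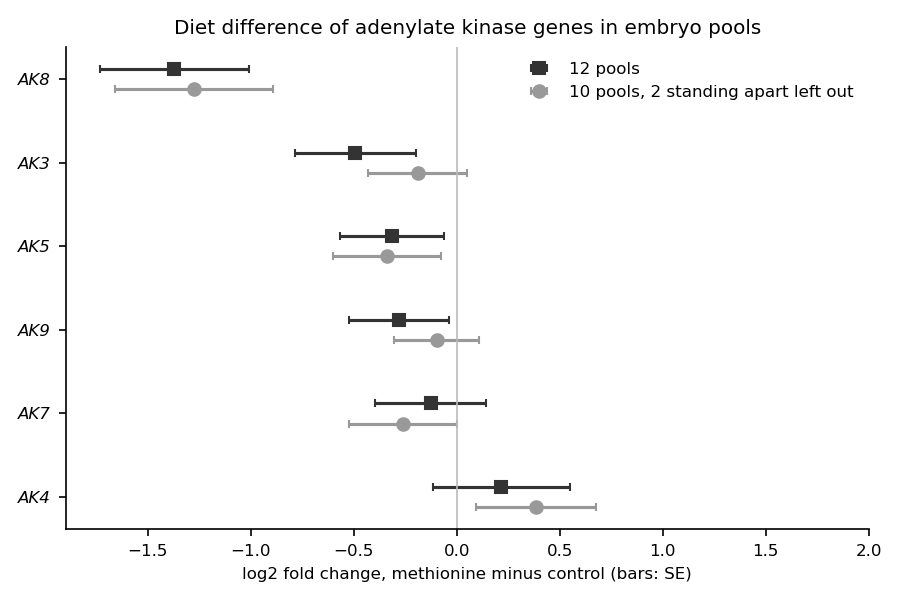
Log2 fold change, methionine minus control, of the 6 adenylate kinase genes found; squares are fits of 12 pools, circles fits of 10 pools without the 2 that stood apart, and bars are 1 SE. AK8 is at -1.37 and -1.28, and the other genes lie between -0.49 and 0.38.

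The pools that stood apart did not move the members in 1 direction. In Embryo444_2, AK3 and AK9 were at their highest and AK8 was second, whereas AK7 was at its lowest. In Embryo511_1 AK4 was at its lowest and the others ranked from 4 to 9 of the 12 pools. Across the 12 pools, as a description of samples that share sires and depth, log2 CPM of AK3 and AK9 had a Pearson r of 0.65. In the 10 pools it was 0.02, so the likeness of AK3 and AK9 rested on the pools that stood apart. AK8 had r = 0.30 with AK7 and 0.57 with AK9 over 12 pools, and 0.59 and 0.51 over 10.

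The genes whose pattern over the 12 pools was most like that of AK8 were found by Pearson r of log2 CPM among the 16488 genes. These were GJD2, a connexin of electrical synapses, with r = 0.953, CES3, a carboxylesterase, with 0.898, NLGN3, a synaptic adhesion protein, with 0.889, ICOS, a costimulatory receptor of T cells, with 0.877 and CACNA2D3, an auxiliary subunit of voltage-gated calcium channels, with 0.873. Over the 10 pools r was 0.962, 0.916, 0.902, 0.887 and 0.907 in the same order. Each is the best of many genes over few pools that share sires. The nearest genes of the other members were ANKRD34C (r = 0.905) and RNF207 (0.895) for AK3, ENTHD1 (0.937) and SLC35F5 (0.916) for AK4, THAP10 (0.879) and ARHGEF18 (0.865) for AK5, LOC101119802 (0.932) and ANKS3 (0.89) for AK7, and FBN3 (0.922) and LOC114112948 (0.917) for AK9. No gene was among the nearest of more than 1 member.

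Enzymes outside the family that pass phosphate between nucleotides were examined as a list. Of 25 genes listed (monophosphate and diphosphate kinases, nucleoside kinases and creatine kinases) 18 were tested, and 0 passed in either direction at an edgeR adjusted p under 0.05. By unadjusted p, 1 of the 18 was under 0.05, a share of the same order as the 7.92% over all genes, and the median log2 fold change was -0.02. CMPK1, which phosphorylates UMP and CMP, had 40.8 ± 10.7 CPM in methionine and 25.3 ± 7.82 CPM in control pools (SD, n = 6 each), a log2 fold change of 0.69 with an edgeR adjusted p of 0.608. DGUOK, the mitochondrial deoxyguanosine kinase, was at -0.53 (adjusted p = 0.675) and TK1, the thymidine kinase of dividing cells, at 0.91 (adjusted p = 0.703).

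Genes that sense or use AMP came next, including subunits of the AMP-activated kinase, AMP deaminases, nucleotidases and enzymes of glycolysis and glycogen set by AMP. The glycogen enzymes listed (PYGL, PYGB and PYGM) and the kinase subunits PRKAA2 and PRKAG3 were not found under those symbols, so they were not tested. Of 33 listed, 22 were tested and 0 passed in either direction, with a median log2 fold change of 0.03. By unadjusted p, 2 of the 22 were under 0.05, near the 7.92% over all genes, and 4 were in the 10 pools, where the share over all genes was 11.9%. The count was 7 without Embryo511_1 alone, with 11.8% over all genes. PRKAG2, a nucleotide-binding gamma subunit of the AMP-activated kinase, had 37.9 ± 9.06 CPM in methionine and 70.1 ± 20.1 CPM in control pools (SD, n = 6 each), with a log2 fold change of -0.88 and an edgeR adjusted p of 0.584. AMPD1, an AMP deaminase known from muscle, had 22.4 ± 11.3 CPM in methionine and 44.3 ± 11.9 CPM in control pools (SD, n = 6 each), with -0.97 and 0.584. NT5E, the surface enzyme that turns AMP into adenosine, was at -0.50 (adjusted p = 0.667).

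The list for motile cilia and flagella, in which AK7 and AK8 have their known role, held 48 genes, of which 45 were tested and 0 passed. Its median log2 fold change was -0.12, against 0.01 for all genes, with 30 genes lower and 15 higher. It was -0.21 in the 10 pools, where the median of all genes was -0.03, and 0.17 when Ram424 was left out. By unadjusted p, 3 of the 45 were under 0.05 (7.92% over all genes), 6 were in the 10 pools (11.9%) and 6 without Embryo511_1 alone (11.8%), counts near or under these shares. Without Ram424 it was 7 of the 44 then tested (8.58%). TEKT1, a tektin of ciliary microtubules, had 12.7 ± 4.77 CPM in methionine and 34.0 ± 18.4 CPM in control pools (SD, n = 6 each), with a log2 fold change of -1.41 and an edgeR adjusted p of 0.584. FOXJ1, the transcription factor that switches on motile cilia genes, was at -1.09 (adjusted p = 0.585) with 2.97 CPM in Embryo511_1, and TPPP3, a tubulin-binding protein, at 0.75 (adjusted p = 0.617). The summed list was yet at its highest in Embryo511_1, at 4967 CPM, and at 3159 CPM in Embryo444_2, against 1732 to 2487 CPM in the 10. CCDC40 alone had 1697 CPM in Embryo511_1, where 8 genes of the list were below the lowest of the 10. The uterus, from which these embryos were flushed, and the oviduct also hold ciliated cells. Of 7 genes listed for their epithelium 5 were tested, with 4 lower and 1 higher in the methionine pools and 0 past the test. The median log2 fold change was -0.66 over 12 pools and -0.11 over 10. By unadjusted p, 2 of the 5 were under 0.05 (7.92% over all genes), and 1 was in the 10 pools (11.9%). The summed level of the 6 found was 121 to 250 CPM in control and 99.4 to 161 CPM in methionine pools. PAX8, a transcription factor of that epithelium, was at -0.92 (edgeR unadjusted p = 0.00736, adjusted p = 0.584). UMOD, whose place in this list was not tested, was at -0.73 (adjusted p = 0.608). MUC1 was at -0.66 (adjusted p = 0.72), ESR1 at -0.10 (0.941) and PGR at 0.19 (0.885). The part of such cells in the AK8 and cilium values was not tested.

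**Figure D3:**
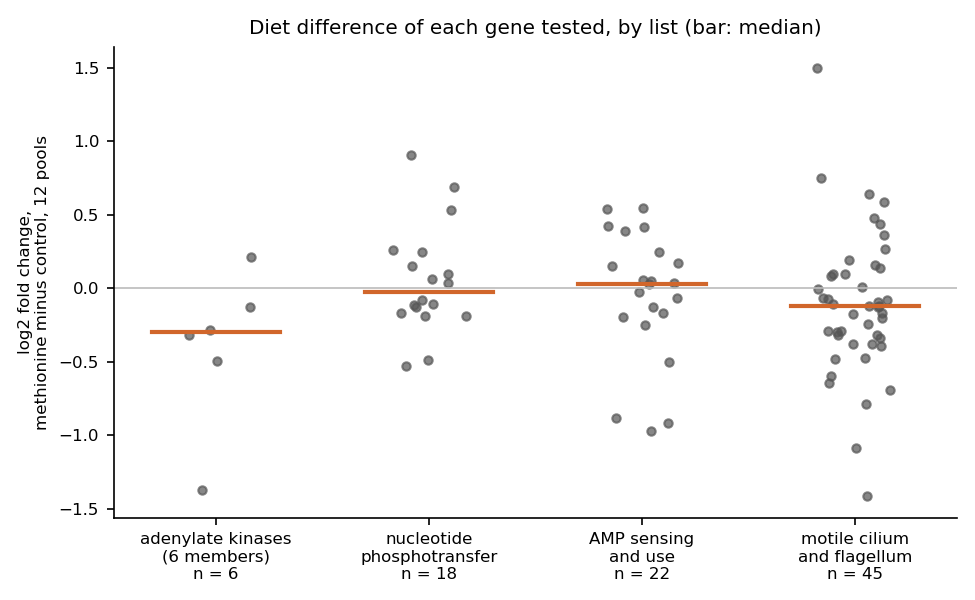
Log2 fold change, methionine minus control over 12 pools, of each gene tested in 4 lists; each point is a gene, horizontally jittered, and orange bars are medians. The medians were -0.30 for the 6 adenylate kinases with AK8, -0.02 for nucleotide phosphotransfer, 0.03 for AMP sensing and use, and -0.12 for motile cilium genes.

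Genes next to AK8 on the chromosome were taken from the gene order of a later sheep assembly. On one side lie SPACA9, TSC1 and GFI1B and on the other GTF3C4, DDX31, BARHL1 and CFAP77. The 5 of these that were tested had log2 fold changes of -0.18 (SPACA9), -0.04 (TSC1), 0.07 (GTF3C4), 0.32 (DDX31) and 0.90 (CFAP77), and edgeR adjusted p ran from 0.695 to 0.979. CFAP77 ran from 7.06 to 81.3 CPM in methionine pools and from 7.14 to 18.1 CPM in control pools. DDX31 ran from 41.3 to 237 CPM and from 58.4 to 93.6 CPM in the same order. The highest value of CFAP77 and that of DDX31 both came from Embryo511_1, a pool that stood apart. For these neighbours no fit without the 2 pools that stood apart is given. GFI1B and BARHL1 had too few counts to be tested, at most 20 and 15 in any pool.

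In sperm, the AK8 site was a CpG cytosine on the + strand of chromosome 3 at position 4288286 of the assembly Oar_rambouillet_v1.0. The study's annotation places it in an intron of AK8. In the control rams 0 of 36 reads (Ram410), 0 of 31 (Ram423) and 0 of 25 reads (Ram444) were methylated, for which a limit of 3 reads allows a level of up to 8.33%, 9.68% and 12.0% and the 95% Wilson interval up to 9.64%, 11.03% and 13.3%. In the methionine rams 10 of 23 reads (Ram424), 5 of 12 (Ram498) and 9 of 19 reads (Ram511) were methylated, or 43.5%, 41.7% and 47.4%. Their Wilson intervals were 25.6 to 63.2%, 19.3 to 68.0% and 27.3 to 68.3%, and all these limits cover counting error only. The 3 methionine rams thus stood apart from the 3 control rams, with a mean of 44.2% ± 2.91 (SD, n = 3) against 0%, as the choice of the site fixes.

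**Figure D4:**
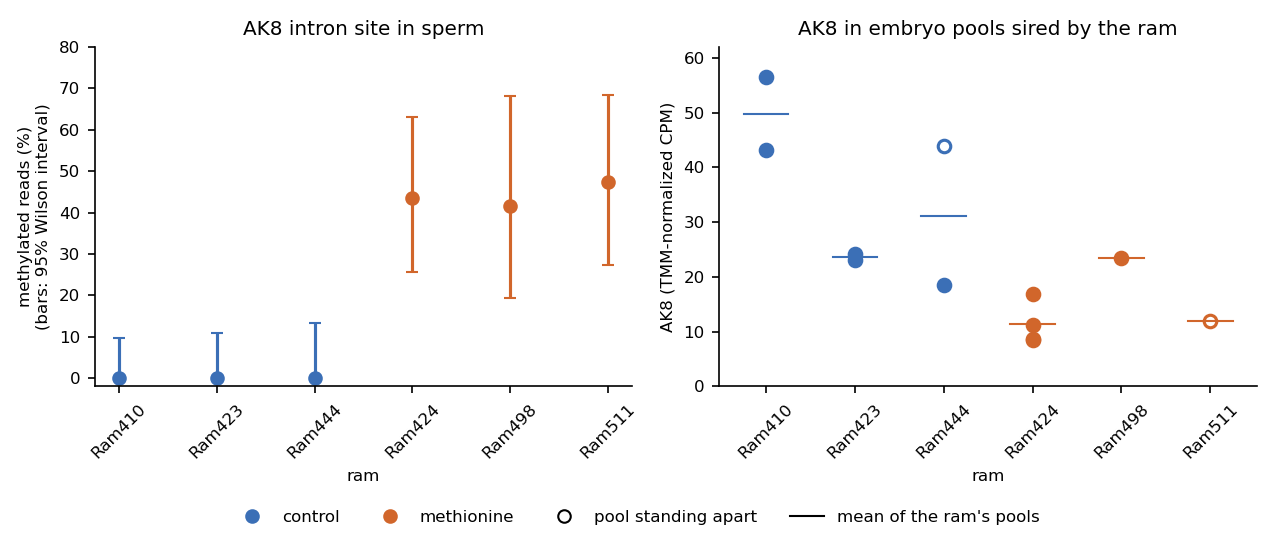
Left, methylated share of reads at the AK8 site in sperm of each ram, with 95% Wilson intervals as bars; right, AK8 level in each embryo pool sired by that ram in TMM-normalized CPM, with lines for the mean of the ram's pools. The control rams are at 0% and the methionine rams between 41.7% and 47.4%, whereas embryo means per ram were 23.7 to 49.8 CPM and 11.3 to 23.5 CPM.

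Beside the embryo values, the sires with 0% at the site had mean AK8 levels of 23.7 to 49.8 CPM in their pools and the sires with 41.7% to 47.4% had 11.3 to 23.5 CPM. Both measures were chosen for their diet difference, so no test or correlation is given. Within a diet the site gave no order of rams, since the 3 control rams were all at 0% and the methionine rams lay within each other's intervals.

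The difference at the site was not shared by its neighbours. There were 5 further cytosines within 100 bp, all on the same strand, at -19, 8, 37, 41 and 46 bp from the site (negative distances lie toward lower coordinates). Each was methylated at 94.7% or more in every ram, and the pooled diet differences ran from -0.76 to 3.26 points, against 44.4 points at the site itself. The read depth of the site and of the cytosines at -19 and 8 bp was the same in each ram, 36 reads in Ram410 and 12 in Ram498, for example. The cytosine opposite the site on the - strand is not among those analysed here. These neighbours can share reads with the site and are given with no test.

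To describe how common such a setting is, cytosines with at least 4 same-strand neighbours within 50 bp, all at 90% or more in every ram, were counted over the sperm data, a definition made after the values at AK8 were seen. There were 16218, the AK8 site among them, and 14047 (86.6%) of these were themselves at 90% or more in every ram. At 0% in 3 or more rams were 87 (0.536%), of which 28 were at 0% in the 3 control rams. No genotype of the rams was analysed here, and the part of sequence differences between rams in the values at the site was not tested.

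The surroundings of AK8 were covered by 147 cytosines within 50 kb of the site, of which 141 lay more than 100 bp away and were tested. By logistic regression with overdispersion and a chi-square test, adjusted over 1850625 cytosines, 0 of the 141 had q under 0.01 and a difference over 20 points, where the share over all cytosines was 0.0184%. By unadjusted p, 20 of the 141 (14.2%) were under 0.05, against 2.94% over all, and 17 of these were higher with methionine. Without Ram424 the count was 11 of the 141, against 3.26% over all, and by an F test in place of the chi-square test it was 5, against 0.374% over all. Levels of the rams were fully apart between the diets at 20 of the 141 (14.2%), against 2.43% over all, and 16 of these were higher with methionine. Cytosines of 1 fragment share reads and are not independent, so these counts are given as a description.

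Of the 20 cytosines with unadjusted p under 0.05, 17 fell in a single block from -33045 to -30658 bp. Within it, 45 cytosines between -31564 and -31056 bp had intermediate levels, and 42 of them were higher with methionine in pooled reads. The mean over these 45 was 24.5% in Ram410, 15.4% in Ram423 and 19.95% in Ram444 with the control diet, and 47.6% in Ram424, 22.9% in Ram498 and 31.4% in Ram511 with methionine. Ram424 stood highest, and Ram498 lay below Ram410, so the diets overlapped. The smallest q was 0.182 at -31258 bp, where 0 of 17, 3 of 30 and 3 of 28 reads were methylated in Ram410, Ram423 and Ram444 and 10 of 21, 10 of 35 and 8 of 27 reads in Ram424, Ram498 and Ram511.

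Elsewhere near AK8 the rams were alike in kind. A CpG-dense block of 50 cytosines from 39850 to 40728 bp on the higher-coordinate side was nearly unmethylated in every ram, with means from 0.953% in Ram410 to 2.68% in Ram424. The 11 cytosines from 37788 bp to 38579 bp had means from 92.1% in Ram498 to 98.5% in Ram424, and 4 cytosines near 21032 bp had intermediate means from 31.8% in Ram410 to 46.4% in Ram444. Averaged over the 141 cytosines, which leave out the site and those within 100 bp, the level was 41.1% ± 4.68 in methionine and 36.5% ± 1.27 in control rams (SD, n = 3 each), a difference of 4.59 points with p = 0.3 by a two-sided exact permutation test whose smallest possible p is 0.1. In pooled reads, which weight deep cytosines more, the difference was -3.13 points (exact p = 0.7), with an SD of 13.9 in methionine rams. The methionine rams Ram498 and Ram511 had deeper data, a median of 39 and 31 reads over all cytosines against 22 to 25 in the other rams. Of all their reads 6.14% and 9.12% were methylated, against 14.8% to 15.6% in the others. The part of this in the pooled difference was not tested. Over the 5 cytosines with at least 20 reads in every ram the difference was 1.22 points (exact p = 0.1). These 5 all lay between 40602 and 40661 bp in the nearly unmethylated block, with means of 2.90% in methionine and 1.67% in control rams. They do not stand for the 50 kb on each side.

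**Figure D5:**
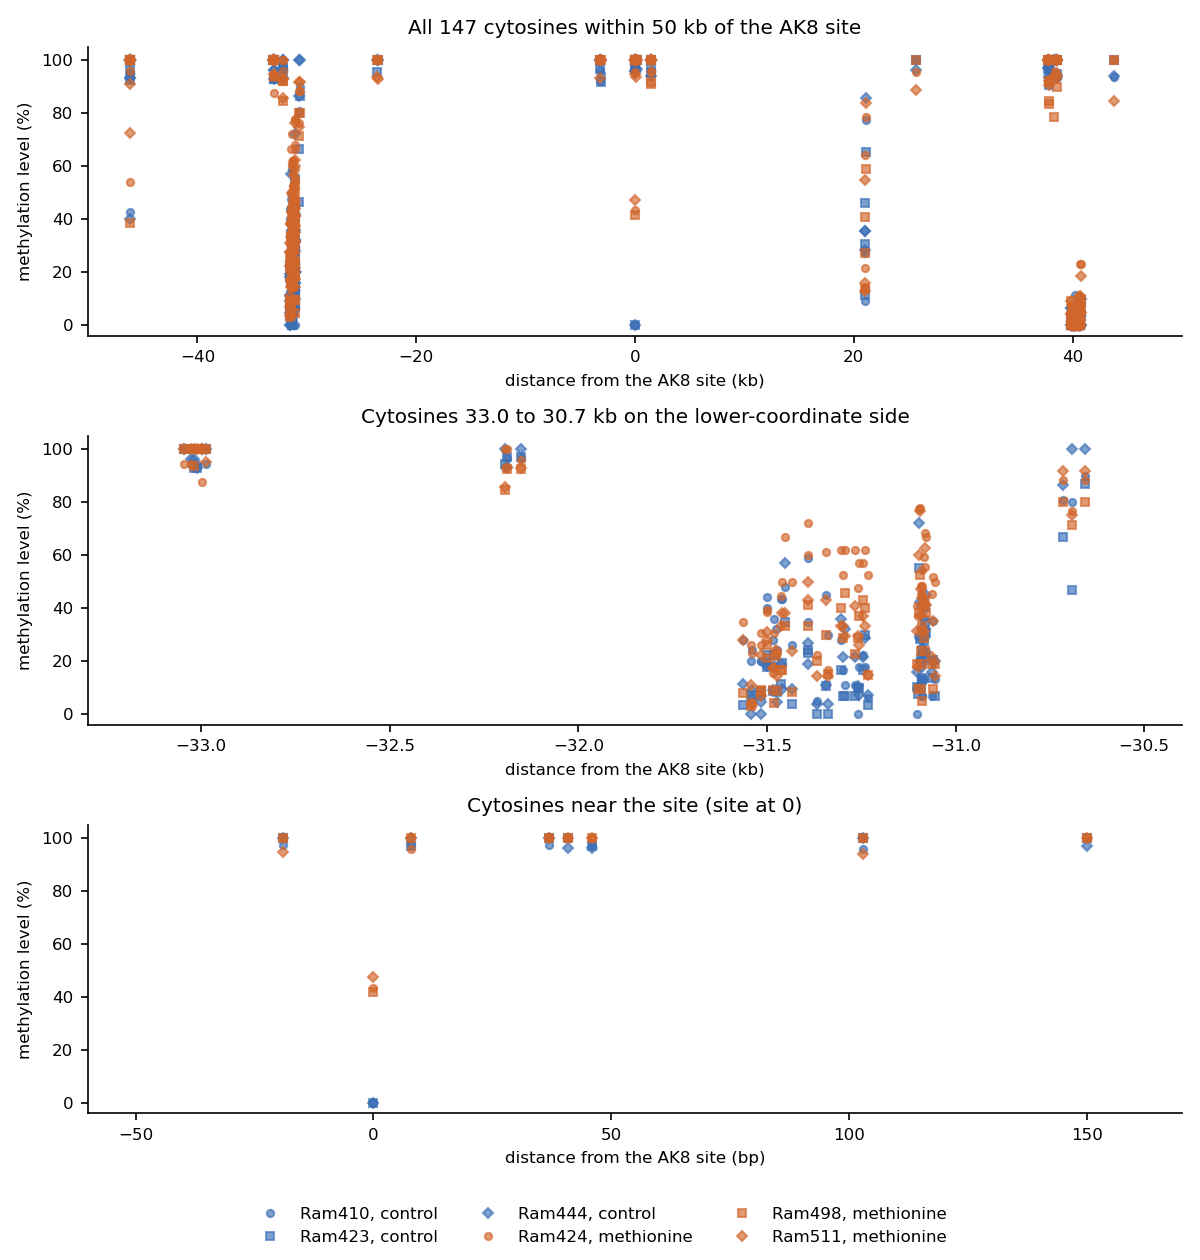
Methylation level in sperm of each ram at cytosines around the AK8 site, against distance from the site (top, within 50 kb; middle, the block from -33045 to -30658 bp; bottom, near the site); blue is control, orange methionine, and marker shapes are rams. At distance 0 the control rams are at 0% and the methionine rams at 41.7% to 47.4%, while the 5 cytosines within 100 bp are at 94.7% or more in every ram.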

How the data were processed

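Sperm of 6 rams and 12 embryo pools were used. Embryo RNA went through whole transcriptome amplification before sequencing. Per the submitters' methods, RNA reads were trimmed with Trimmomatic and aligned with STAR to Oar_rambouillet_v1.0, and the authors deposited raw counts per gene; the strand setting is not given in the sources used here, so antisense overlap at AK genes cannot be told apart. Bisulfite reads were aligned and called with Bismark after removal of duplicates by molecular identifiers, and the authors deposited methylated read counts and coverage per CpG cytosine with at least 10 reads in every ram. No deposited fold changes or p-values were used.

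Counts were tested with edgeR 4.0.16 in R 4.3.3 (TMM, quasi-likelihood test, a filter of 15 or more counts that over 3 pools had to reach, Benjamini-Hochberg adjustment over all genes tested). CPM are counts divided by the TMM-scaled library size, and correlations used log2 CPM with a prior count of 2. limma 3.58.1 and DESeq2 1.42.0 gave alternatives. Sperm cytosines were fitted by logistic regression on diet with an overdispersion of at least 1 and a chi-square test; the study's model also held the age of each ram, which the labels do not give. Both fits were tested on simulated data.

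The members and lists were chosen with earlier results of these data known. Named genes were the members, for AK8 the 5 and for others the 2 genes with the highest correlation, and of each list the 3 smallest p; 1 further gene of that rule is not reported here and was left out of its list. An annotation of the build was not at hand, so no gene lengths, other AK loci in sperm or sequences are given, levels are not compared between genes, and neighbours come from the gene order of ARS-UI_Ramb_v3.0 in RefSeq. Embryo424_1 and Embryo424_2 were the most alike pools of a ram (Spearman 0.955, chi-square per degree of freedom 3.29, against at most 0.895 and at least 8.29 in other pairs); as they differed beyond counting noise they were kept apart, and whether they are repeat libraries of 1 pool was not tested. With both summed, the log2 fold change of AK8 was -1.28.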

Additional observations from a re-analysis of the deposited data

Results flagged for a closer look

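Each of the 6 members was checked within each diet for a pool far from the other 5 of its diet (a gap over 0.625 of the group's range, Dixon's critical value, which chance passes in about 1 of 20 groups). Of 12 groups, 4 held such a pool. AK3 was at 103 CPM in Embryo444_2 against 32.6 to 50 CPM in the other control pools. AK9 was at 143 CPM in Embryo444_2 against 63.2 to 89.2 CPM. Both values belong to a pool that stood apart over all genes, and in the 10 pools the log2 fold changes were -0.19 for AK3 and -0.10 for AK9. AK7 was at 129 CPM in Embryo410_1 where the remaining control pools had 41.8 to 68.1 CPM, and AK9 was at 48.3 CPM in Embryo424_1 against 71.8 to 82.5 CPM in the other methionine pools. AK8 had no such pool in either diet. Groups of 3 rams were not checked.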

How the results depend on the processing

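None of the 5 members tested and no gene of the 3 pathway lists was called under any of the 26 alternatives in embryo pools, 24 of them distinct since Ram498 and Ram511 gave 1 pool each (other tests, RLE scaling, no filter, summed pools, the ram as a random effect, pools or rams left out, and, chosen after seeing the data, 10 pools or Embryo424_1 and Embryo424_2 summed). Few genes were called at all: 5 of 16488 by the likelihood-ratio test, 16 of 16488 by DESeq2, 1 of 16161 in the 10 pools and 0 under the other alternatives. No paired analysis was possible because the pool number only counts pools within a ram. The log2 fold change of AK8 stayed below 0 in all 26, from -1.61 without Ram498 to -0.95 without Ram424, and those of AK3, AK5 and AK9 stayed below 0 too. AK4 turned to -0.10 with summed pools, -0.084 in limma, -0.13 without Embryo424_2, -0.61 without Ram424 and -0.00034 with Embryo424_1 and Embryo424_2 summed, and ran from -0.61 to 0.38 when pools or rams were left out. AK7 turned to 0.015 with summed pools, 0.0053 in limma, 0.17 without Embryo410_1 or without Ram410 (0.17) and 0.09 without Ram424, and ran from -0.26 to 0.17. In sperm, 1 of the 141 cytosines was called without the overdispersion correction (0.319% over all cytosines) and 0 under the other alternatives. The mean difference within 50 kb was -3.13 points in pooled reads, where deep cytosines weigh more, and ran from 2.09 to 6.72 points with a ram left out. Gene bodies without upstream sequence were not run for lack of an annotation. AK8 rests on 12 to 75 counts per pool, 12 to 36 reads per ram at the site and 3 rams per diet.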
